A study of Mus musculus with 6 samples.

Results

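The insulin and insulin-like growth factor (IGF) pathway was followed through 8 of its genes in mouse embryonic stem (ES) cells in which the RNA-binding protein gene Lin28a was reduced. The 8 genes are the ligand gene Igf2, the receptor genes Insr, Igf1r and Igf2r, the adaptor genes Irs1 and Irs2, the kinase gene Akt1 and Rictor, a subunit gene of a kinase complex. They were taken by symbol, and all 8 had at least 1 probe set (called a row here) that the array annotation assigns to that symbol alone. They have 10 such rows, out of 35556 rows in the value table, and 8 of the 19946 genes that have a row of their own. Insr and Irs1 have 2 rows each, and where 1 value is given per gene it is that of the brighter row.

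The cells were the ES cell line A3-1, in 3 groups of 2 Affymetrix arrays. The first group received a small interfering RNA (siRNA) against Lin28a for 48 h (siLin28a), the second an siRNA against green fluorescent protein for 48 h (siGFP, the control siRNA), and the third was left untreated. Every group grew in DMEM with fetal bovine serum, non-essential amino acids and LIF, which sustains self-renewal of mouse ES cells. Serum is itself a source of insulin-like growth factors. Each siRNA group received 1 duplex, the groups are of 1 cell line, and the labels name neither feeder cells nor a withdrawal of serum. Values are log2 expression as deposited, in steps of 0.1, and a difference of 1 on this scale is a doubling. Nothing in the labels says that paired arrays represent independent cultures, so errors and p-values describe only array-to-array spread, part or all of which may be technical.

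Insulin, Igf1 and Igf2 bind the receptor tyrosine kinases Insr and Igf1r, which dock the adaptors Irs1 and Irs2. The adaptors bring in phosphoinositide 3-kinase (PI3K), whose lipid product recruits Akt kinases to the membrane, and Akt is fully activated by the kinase complex mTORC2, of which Rictor is the defining subunit. Igf2r has no such signalling role: it binds Igf2 at the cell surface and carries it to the lysosome. LIN28 proteins block the maturation of let-7 microRNAs, and published work in mice and in cell lines has placed several pathway mRNAs, among them those of Igf1r, Insr, Irs2 and Rictor, under repression by let-7. LIN28A has also been reported to bind Igf2 mRNA in muscle cells.

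The let-7 microRNAs and the siRNA are shown because they are the sequences through which these groups differ or have been linked to the pathway. RefSeq (build GRCm38.p6) lists 13 mouse let-7 and miR-98 loci, and 12 of them share 1 seed, the bases 2 to 8 in capitals, with which a microRNA pairs to its targets. Examples of that family follow, and after them the 2 strands of the Lin28a siRNA as the labels list them, without the overhangs, with bases 2 to 8 of the second strand in capitals. The strands are fully complementary over 19 bases.
mmu-let-7a-5p: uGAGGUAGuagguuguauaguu
mmu-let-7b-5p: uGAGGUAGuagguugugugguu
mmu-let-7g-5p: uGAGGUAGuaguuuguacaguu
mmu-let-7i-5p: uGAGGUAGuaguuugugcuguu
siLin28a first strand: gcagaagcgaagauccaaa
siLin28a second strand: uUUGGAUCuucgcuucugc

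The target of the siRNA was lower in its group. Lin28a had 7.4 in each siLin28a array, against 9.1 and 9.4 in the siGFP arrays and 9.1 and 9.4 in the untreated arrays. Its log2 difference was −1.85 (SE 0.16, 95% interval −2.24 to −1.46) between siLin28a and siGFP. All 10 ES cell markers examined, Pou5f1, Sox2 and Nanog among them, had a mean of at least 8, in keeping with the labelled cell type. The mean level of these markers was 10.05 to 10.25 in siLin28a arrays, 10.32 to 10.6 in siGFP arrays and 10.45 to 10.54 in untreated arrays, lower with siLin28a. In contrast, the 9 feeder fibroblast markers had array means of 4.71 to 4.87 with siLin28a, 4.72 to 4.73 with siGFP and 4.73 to 4.90 untreated, and they ran from Lum at 2.42 to Col1a1 at 6 and Thy1 at 6.82 over all arrays. The 10 markers of primitive and visceral endoderm had array means of 4.90 to 4.98 with siLin28a, 4.98 to 4.99 with siGFP and 4.92 to 5.01 untreated, and they included Ttr at 3.30, Afp at 4.10 and, as the brightest, Lama1 at 7.45 over all arrays. The 9 mesoderm markers had array means of 5.28 to 5.31 with siLin28a, 5.12 to 5.24 with siGFP and 5.13 to 5.18 untreated, higher with siLin28a although 0 of the 9 had a mean of 6 or more. The trophoblast markers had array means of 5.52 in both siLin28a arrays, 5.49 to 5.54 with siGFP and 5.46 to 5.56 untreated, and the neural markers 5.14 to 5.19 with siLin28a, 5.12 in both siGFP arrays and 5.12 to 5.2 untreated. Between siLin28a and siGFP genes within these lists ran both ways. Of the trophoblast markers 7 were higher and 3 lower, and of the neural markers 6 and 4. Tfap2c, the brightest trophoblast marker, had a mean of 7.7 with siLin28a, 8.25 with siGFP and 8.25 untreated. The neural marker Tubb3 had 6.45, 7.0 and 7.3 in the same order. Sox1, the brightest neural marker, had 7.1, 7.0 and 7.15. Highest with siLin28a were the trophoblast marker Krt8, with 6.3, 6.1 and 5.9, and the dim neural marker Dcx, with 3.9, 3.4 and 3.65. The part of the ES cell and mesoderm markers in the results below was not tested.

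The comparison of siLin28a with siGFP sets reduced Lin28a against a transfection that left Lin28a alone. Of the 8 genes 0 passed the threshold between siLin28a and siGFP by limma (adjusted p under 0.05 over 23410 rows), where 0% of all rows passed, and 0 of the 8 had an unadjusted p under 0.05, where 4.05% of rows did. Least squares without limma's shared prior also called 0 of the 8, with 2 at an unadjusted p under 0.05. The share of 4.05% is limma's, and the share of all rows under least squares is not given here. The log2 differences lay between −0.25 for Rictor and 0.15 for Igf2, with SE between 0.11 and 0.22 (n = 2 arrays per group). Over the 8 genes the median was −0.10, beside 0.00 over all tested rows, with 6 of them lower, 1 higher (Igf2) and 1 level (Akt1). Of the 23410 tested rows, 11605 were lower and 8969 higher. The upper quartile of the whole value table was 7.0 and 7.1 in siLin28a arrays and 7.2 in every siGFP and untreated array. Leaving out siGFP replicate 2 gave a median of −0.20 and leaving out siLin28a replicate 1 gave −0.18. It was −0.05 after cyclic loess or repeated quantile normalization, and −0.025 with the rows of each gene averaged. The 95% intervals of the 8 genes reached at most −0.55 (Irs2) and 0.52 (Akt1), that is 0.683 and 1.44 times the siGFP level. They rest on the brighter row of each gene and on array-to-array spread, and may not cover the spread between cultures. Changes inside a gene's interval could not be resolved with these arrays. In 3 of the 8 genes (Rictor, Irs1 and Igf1r) both siLin28a arrays were below both siGFP arrays, as in 11.8% of all tested rows, and in 0 of the 8 both were above, as in 9.03%. In either direction the groups did not overlap in 3 of 8 genes and in 20.8% of rows. These counts use the brighter rows. In the dimmer rows of Insr and Irs1 both siLin28a arrays were above both siGFP arrays, with differences of 0.25 (SE 0.11) and 0.20 (SE 0.13).

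**Figure D1:**
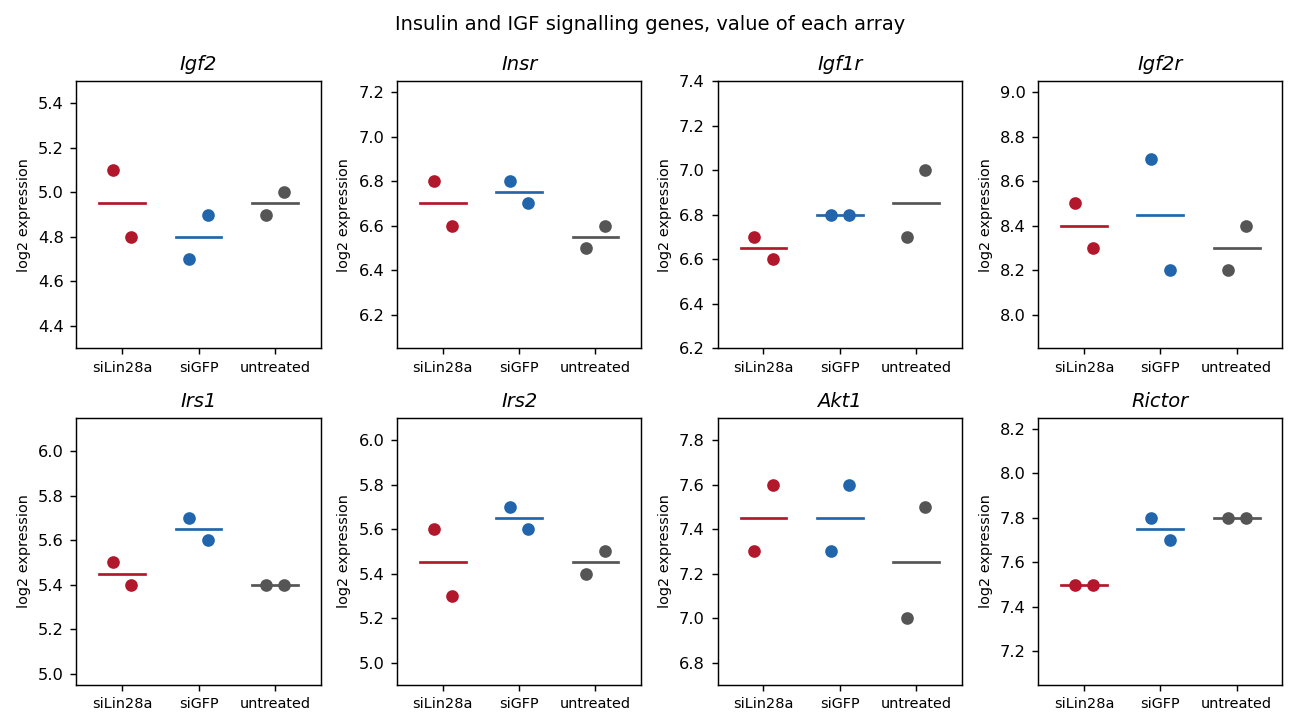
Log2 expression of the 8 insulin and IGF signalling genes (brighter row of each gene) by group. Points are single arrays, lines are group means of 2 arrays, and every panel spans 1.2 log2 units; both siLin28a arrays of Rictor lie at 7.5, below the other 4, while the groups of Igf2, Igf2r and Akt1 overlap.

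Among the receptors and the ligand, Igf2 encodes a growth factor that is expressed from the paternal allele in the mouse. It had 5.1 and 4.8 in siLin28a arrays, 4.7 and 4.9 in siGFP arrays and 4.9 and 5.0 in untreated arrays (probe set 10569344). The row was dim, with 37.6% of tested rows dimmer still, and its groups overlapped. The difference between siLin28a and siGFP was 0.15 (SE 0.15, interval −0.22 to 0.52, adjusted p = 0.953 by limma), and between siLin28a and untreated cells it was 0.00 (interval −0.37 to 0.37). The order of the group means was siLin28a and untreated at 4.95 and siGFP at 4.80, and no neighbours in it differed beyond their spread.

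Igf1r, the receptor that carries most of the growth signal of both IGFs, had 6.7 and 6.6 in siLin28a arrays, 6.8 and 6.8 in siGFP arrays and 6.7 and 7.0 in untreated arrays (probe set 10554094). Both siLin28a arrays were below both siGFP arrays, and 1 of them was level with an untreated array. Its difference was −0.15 between siLin28a and siGFP (SE 0.14, interval −0.49 to 0.19, adjusted p = 0.953 by limma) and −0.20 between siLin28a and untreated cells (interval −0.54 to 0.14). Between siGFP and untreated cells it was −0.05, and it was 0.10 without untreated replicate 2. The means ran from 6.65 with siLin28a through 6.80 with siGFP to 6.85 untreated, and neighbours did not differ beyond their spread.

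Insr, the insulin receptor, is covered by 2 rows that both list its RefSeq transcript, and they gave different pictures. The brighter row (probe set 10576692) had 6.8 and 6.6 in siLin28a arrays, 6.8 and 6.7 in siGFP arrays and 6.5 and 6.6 in untreated arrays. The other row (probe set 10576696) had 6.3 and 6.3 in siLin28a arrays, 6.1 and 6.0 in siGFP arrays and 6.1 and 6.1 in untreated arrays. In the brighter row both siRNA groups had the higher means, whereas in the other row the siLin28a arrays stood above the other 4. The siLin28a minus siGFP difference was −0.05 (SE 0.13, interval −0.36 to 0.26) in the brighter row and 0.25 (SE 0.11, interval −0.02 to 0.52) in the other, with an adjusted p of 0.953 by limma for each. Neither difference passed, and the direction for Insr therefore depended on the row: the mean of both rows gave 0.10, and the brighter row gave 0.05 without siLin28a replicate 2.

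Igf2r, the clearance receptor for Igf2, had 8.5 and 8.3 in siLin28a arrays, 8.7 and 8.2 in siGFP arrays and 8.2 and 8.4 in untreated arrays (probe set 10447799). The siGFP arrays differed from each other by more than any 2 group means did. Its difference between siLin28a and siGFP was −0.05 (SE 0.20, interval −0.53 to 0.43), and it was 0.20 without siGFP replicate 1, 0.05 without siLin28a replicate 2, 0.04 after cyclic loess and 0.03 when quantile normalized again. Between siGFP and untreated cells it was 0.15, and it was −0.10 without siGFP replicate 1. No order of its group means could be told from the spread.

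In the adaptor genes Irs1 and Irs2, as in Igf2r and the brighter row of Insr, siGFP had the highest mean. The rows of Irs1 and Irs2 were rather dim, with 47.5% of tested rows dimmer than Irs1 and 47.8% dimmer than Irs2. Irs1 had 5.5 and 5.4 in siLin28a arrays, 5.7 and 5.6 in siGFP arrays and 5.4 and 5.4 in untreated arrays (probe set 10356084). Irs2, the adaptor gene that FoxO factors activate in liver, had 5.6 and 5.3 in siLin28a arrays, 5.7 and 5.6 in siGFP arrays and 5.4 and 5.5 in untreated arrays (probe set 10576971). Both siGFP arrays of Irs1 were above the other 4 arrays, and for Irs2 this held except for siLin28a replicate 1, which was level with siGFP replicate 2. The siLin28a minus siGFP difference was −0.20 for Irs1 (SE 0.12, interval −0.48 to 0.08) and −0.20 for Irs2 (SE 0.14, interval −0.55 to 0.15), with an adjusted p of 0.953 by limma for each. Against untreated cells the siLin28a group differed by 0.05 for Irs1 (interval −0.23 to 0.33) and 0.00 for Irs2 (interval −0.35 to 0.35). A second row of Irs1 (probe set 10347792), annotated with 1 other mRNA record, was far dimmer at 3.3 and 3.3 in siLin28a arrays, 3.2 and 3.0 in siGFP arrays and 3.2 and 3.3 in untreated arrays, and its difference ran the other way, at 0.20 (SE 0.13) between siLin28a and siGFP. The mean of both Irs1 rows gave 0.00.

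Akt1, the kinase on which receptor signals converge, had 7.3 and 7.6 in siLin28a arrays, 7.3 and 7.6 in siGFP arrays and 7.0 and 7.5 in untreated arrays (probe set 10402766). The 2 siRNA groups held the same values, replicate by replicate. The difference between them was 0.00, with an interval of −0.52 to 0.52, and replicate 2 was above replicate 1 by 0.3 to 0.5 in every group. Against untreated cells siLin28a and siGFP each differed by 0.20 (SE 0.22), which became −0.05 without untreated replicate 1.

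Rictor, without which mTORC2 does not form, had 7.5 and 7.5 in siLin28a arrays, 7.8 and 7.7 in siGFP arrays and 7.8 and 7.8 in untreated arrays (probe set 10422781). Both siLin28a arrays were below all 4 others, as in 5.03% of all tested rows. By the brighter rows this held for 1 of the 8 genes, and for 0 of them were both siLin28a arrays above all 4 others, as in 3.64% of rows. In the dimmer row of Insr both siLin28a arrays were above all 4 others. The Rictor difference was −0.25 between siLin28a and siGFP (SE 0.11, interval −0.52 to 0.02, adjusted p = 0.953 by limma). Between siLin28a and untreated cells it was −0.30 (SE 0.11, interval −0.57 to −0.03, adjusted p = 0.731 by limma). Neither passed over all rows. The first was −0.17 after cyclic loess and −0.16 when quantile normalized again, and it lay between −0.30 and −0.20 when 1 array was left out. The group means were 7.50 with siLin28a, 7.75 with siGFP and 7.80 untreated, and siGFP and untreated did not differ beyond their spread (−0.05, interval −0.32 to 0.22).

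**Figure D2:**
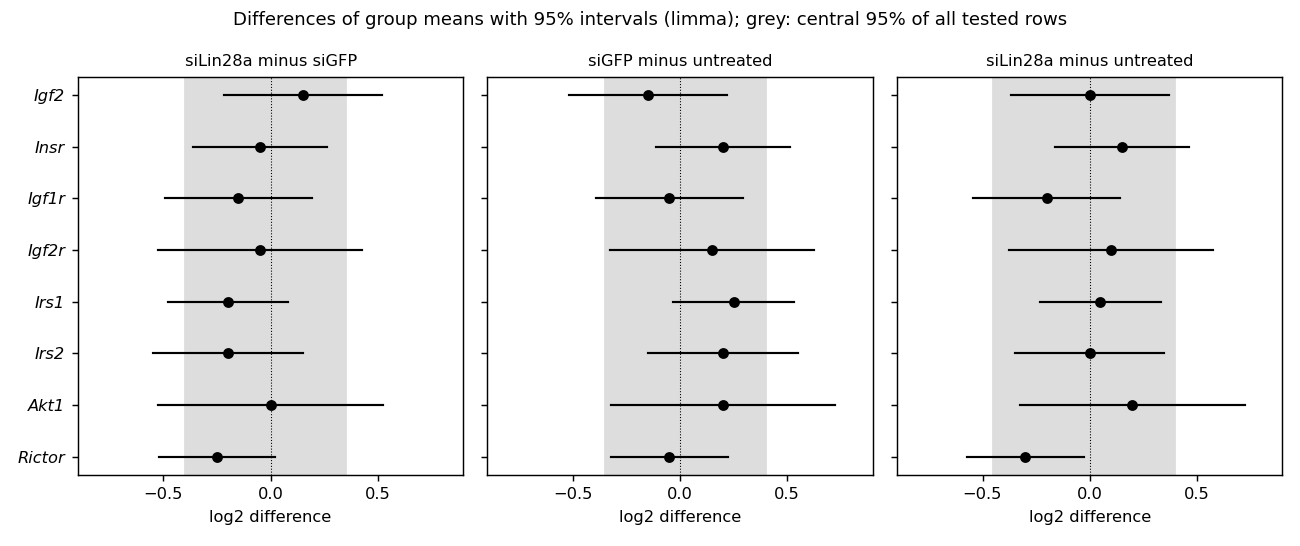
Difference of group means on the log2 scale (x axis) for each of the 8 genes (rows) in the 3 comparisons. Points are differences, bars are 95% intervals from limma with 2 arrays per group, and the grey band holds the central 95% of all 23410 tested rows; the interval of Rictor excludes 0 between siLin28a and untreated cells, before any adjustment for the number of rows, and every other interval includes 0.

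The other subunits of the complexes that contain Rictor or its counterpart Rptor were examined in the same way, after the values of Rictor had been seen. Mapkap1, the second defining subunit of mTORC2, had 7.9 and 7.9 in siLin28a arrays, 8.1 and 8.0 in siGFP arrays and 8.0 and 8.0 in untreated arrays. Its siLin28a arrays were also the lowest, as in 5.03% of all tested rows. The difference against siGFP was −0.15 (SE 0.11), which did not pass. The kinase gene Mtor itself had 8.4 and 8.2 in siLin28a arrays, 8.5 and 8.2 in siGFP arrays and 8.2 and 8.4 in untreated arrays, with full overlap. Rptor, which defines mTORC1 in place of Rictor, had 8.4 and 8.4 in siLin28a arrays, 8.5 and 8.3 in siGFP arrays and 8.2 and 8.5 in untreated arrays, a difference of 0.00 between siLin28a and siGFP. The other subunits overlapped between siLin28a and siGFP, with differences of −0.20 (SE 0.19) for Mlst8, −0.25 (SE 0.29) for Prr5, 0.00 (SE 0.13) for Prr5l and −0.05 (SE 0.14) for Deptor.

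The comparison of siGFP with untreated cells gives the background of siRNA delivery for the same genes. It shares the siGFP arrays with the comparison above, so opposite signs in the 2 comparisons are not independent of each other. By limma 0 of the 8 genes passed, where 0% of all rows passed. By limma too, 0 of the 8 had an unadjusted p under 0.05, where 3.52% of rows did. Least squares without the prior called 0, with 1 at an unadjusted p under 0.05. The share of all rows under least squares is not given here. The median over the 8 genes was 0.18, beside 0.00 over all tested rows, and it was 0.00 without untreated replicate 1, 0.05 without siGFP replicate 1 and 0.06 with the rows of each gene averaged. In 3 genes, Irs1 at 0.25 (SE 0.12), Irs2 at 0.20 (SE 0.14) and Insr at 0.20 (SE 0.13), both siGFP arrays were above both untreated arrays, as in 9.22% of all tested rows. In 0 of the 8 genes both were below, as in 8.46%, and 17.7% of rows did not overlap in either direction. The dimmer rows of Insr and Irs1 ran the other way, at −0.05 (SE 0.11) and −0.15 (SE 0.13).

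Between siLin28a and untreated cells 0 of the 8 genes passed by limma, where 0% of all rows passed. By limma too, 1 of the 8, Rictor, had an unadjusted p under 0.05, where 6.44% of rows did. Least squares also called 0, with 1 at an unadjusted p under 0.05. The share of all rows under least squares is not given here. The median over the 8 genes was 0.03, beside 0.00 over all tested rows, with 4 genes higher, 2 lower and 2 equal. Of all tested rows 9806 were higher and 10931 lower. The sign of this median turned with single arrays: it was −0.05 without untreated replicate 1, −0.075 without siLin28a replicate 1 and −0.025 with arrays set to the same median, against 0.05 without untreated replicate 2 and 0.125 without siLin28a replicate 2. This comparison shares its siLin28a arrays with the first and its untreated arrays with the second. By the brighter row of each gene, Rictor alone had arrays that did not overlap, in the lower direction, as in 12.6% of all tested rows. In the higher direction 11.1% of rows did not overlap, and in either direction 23.7%. In the dimmer row of Insr both siLin28a arrays were above both untreated arrays, by 0.20 (SE 0.11). The dimmer row of Irs1 overlapped, at 0.05 (SE 0.13).

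The wider pathway was described through 8 lists holding 133 genes, of which 124 had a row of their own. Between siLin28a and siGFP 0 of the 124 passed by limma, and 6 reached an unadjusted p under 0.05: Irs4, Ddit4l and Cdkn1c were higher and Pdk4, Plagl1 and Zfp57 lower. Over all tested rows 1.79% reached it as higher and 2.26% as lower. In 22 of the 124 genes both siLin28a arrays were below both siGFP arrays, as in 11.8% of all rows, and in 6 both were above, as in 9.03%. Both siLin28a arrays were below all 4 others in 9 of the 124 genes, as in 5.03% of all rows. They were above all 4 others in 5 genes, as in 3.64%. The median of the 124 was −0.05 between siLin28a and siGFP. Between siGFP and untreated cells 0 passed, and Ddit4, Ddit4l, Grb14, Hmga2 and Phlda3 as higher and Irs4 as lower reached an unadjusted p under 0.05, where 2.19% of rows did as higher and 1.33% as lower. Between siLin28a and untreated cells 0 passed, and 10 reached that level, 6 as higher and 4 as lower, where 2.89% and 3.55% of rows did. Both siGFP arrays were above both untreated arrays in 17 of the 124 genes, as in 9.22% of rows, and below in 5, as in 8.46%. Both siLin28a arrays were above both untreated arrays in 21 genes, as in 11.1% of rows, and below in 17, as in 12.6%.

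**Figure D3:**
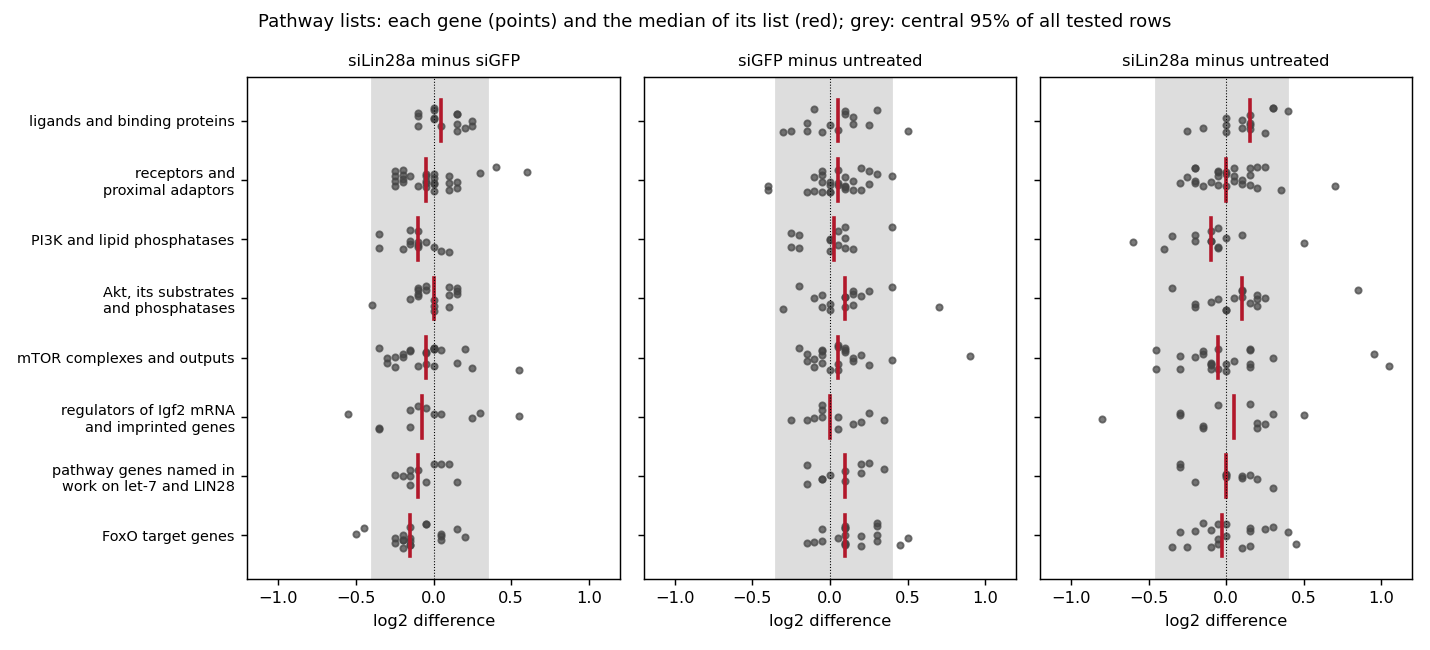
Log2 differences (x axis) of the measured genes of 8 pathway lists (rows) in the 3 comparisons; a gene can be in more than 1 list. Points are genes, red lines are list medians, and the grey band holds the central 95% of all tested rows; list medians lie between −0.15 and 0.15, and the points farthest out include Ddit4, Ddit4l and Phlda3 in the comparisons with untreated cells.

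Among the ligands and binding proteins, of 15 measured genes 0 had an unadjusted p under 0.05 in any comparison, and the list medians were 0.05 between siLin28a and siGFP, 0.05 between siGFP and untreated cells and 0.15 between siLin28a and untreated cells. Igfbp3, which sequesters IGFs, had 6.5 and 6.7 in siLin28a arrays, 6.2 and 6.5 in siGFP arrays and 6.3 and 6.3 in untreated arrays. Stc2, an inhibitor of the proteases that release IGFs from their binding proteins, had 7.3 and 7.2 in siLin28a arrays, 7.7 and 7.0 in siGFP arrays and 6.7 and 7.0 in untreated arrays. For both genes the siLin28a arrays were above the untreated arrays, by 0.30 (SE 0.15) and 0.40 (SE 0.24), without passing. Igfbp4, another binding protein, differed by 0.15 (SE 0.12) between siGFP and untreated cells.

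Receptors and proximal adaptors gave 28 measured genes with a median of −0.05 between siLin28a and siGFP, and 1 of them had an unadjusted p under 0.05. That gene was Irs4, an adaptor of the same family as Irs1 and Irs2, named here after its values were seen because its row is dim. It had 4.9 and 4.8 in siLin28a arrays, 4.3 and 4.2 in siGFP arrays and 4.7 and 4.6 in untreated arrays. Its siGFP arrays were the lowest, the reverse of Irs1, with differences of 0.60 between siLin28a and siGFP (SE 0.12, adjusted p = 0.953 by limma) and −0.40 between siGFP and untreated cells (SE 0.12). Grb10, an imprinted adaptor that dampens signalling by both receptors, had 7.0 and 6.3 in siLin28a arrays, 6.6 and 5.9 in siGFP arrays and 5.8 and 6.1 in untreated arrays. It differed by 0.70 between siLin28a and untreated cells (SE 0.31, adjusted p = 0.776 by limma), with a wide gap between replicates of both siRNA groups. Sos1, the exchange factor that links adaptors to Ras, was below all other arrays at 6.7 and 6.7 with siLin28a, as in 5.03% of all tested rows. It had 7.1 and 6.8 with siGFP and 7.0 and 7.0 untreated. Gigyf2, which binds Grb10, differed by −0.25 (SE 0.17) between siLin28a and siGFP and by 0.00 between siLin28a and untreated cells. Between siGFP and untreated cells the adaptors Grb7 and Grb14 differed by −0.40 (SE 0.20) and 0.40 (SE 0.14), and Grb14, like Irs4, was named after its values were seen.

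Genes of PI3K and of the lipid phosphatases that oppose it had a median of −0.10 between siLin28a and siGFP, with 11 of 14 measured genes lower, 2 higher and 1 equal, and 0 at an unadjusted p under 0.05. Of the 23410 tested rows, 11605 were lower and 8969 higher in that comparison. Pik3r1, the regulatory subunit that binds phosphorylated adaptors, had 5.6 and 5.8 in siLin28a arrays, 6.1 and 6.0 in siGFP arrays and 6.1 and 5.7 in untreated arrays, a siLin28a minus siGFP difference of −0.35 (SE 0.17). Against untreated cells, Inpp5d, a phosphatase that removes the PI3K product, had 9.3 and 9.3 in siLin28a arrays, 9.3 and 9.1 in siGFP arrays and 8.6 and 9.0 in untreated arrays. Both siRNA groups were above the untreated arrays for Inpp5d, by 0.50 with siLin28a (SE 0.17, adjusted p = 0.695 by limma) and by 0.40 with siGFP (SE 0.17). The lipid kinase gene Pik3c2a had 6.6 and 6.4 in siLin28a arrays, 7.1 and 6.6 in siGFP arrays and 7.4 and 6.8 in untreated arrays. It differed by −0.60 (SE 0.25) between siLin28a and untreated cells, and by −0.30 without untreated replicate 1. In the same comparison Pdpk1, the kinase that phosphorylates Akt after PI3K, differed by −0.40 (SE 0.17), and it was named after its values were seen.

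Akt, its substrates and its phosphatases had a median of 0.00 between siLin28a and siGFP over 17 measured genes, with 0 at an unadjusted p under 0.05. Foxo1, a transcription factor that Akt keeps out of the nucleus, had 7.9 and 7.9 in siLin28a arrays, 7.8 and 7.7 in siGFP arrays and 7.5 and 7.8 in untreated arrays. The siLin28a arrays were the highest by a narrow margin, 0.15 above siGFP (SE 0.14). Over all tested rows 3.64% had both siLin28a arrays above the other 4. Phlda3, a p53 target whose product competes with Akt for membrane lipids, had 7.6 and 7.7 in siLin28a arrays, 7.3 and 7.7 in siGFP arrays and 6.8 and 6.8 in untreated arrays. It separated both siRNA groups from untreated cells, by 0.85 with siLin28a (SE 0.16, adjusted p = 0.558 by limma) and by 0.70 with siGFP (SE 0.16, adjusted p = 0.961 by limma). Gsk3b, a kinase that Akt inhibits, had 7.5 and 7.6 in siLin28a arrays, 7.8 and 7.6 in siGFP arrays and 7.9 and 7.9 in untreated arrays, and differed by −0.35 (SE 0.13) between siLin28a and untreated cells.

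In the list of mTOR complexes and their outputs, 23 genes were measured, with a median of −0.05 between siLin28a and siGFP and 1 gene, Ddit4l, at an unadjusted p under 0.05. Ddit4l, whose product restrains mTOR signalling, had 7.0 and 6.9 in siLin28a arrays, 6.5 and 6.3 in siGFP arrays and 6.1 and 5.9 in untreated arrays. Its 3 groups did not overlap, in that order, with differences of 0.55 between siLin28a and siGFP (SE 0.14, adjusted p = 0.953 by limma) and 0.95 between siLin28a and untreated cells (SE 0.14, adjusted p = 0.463 by limma). The related inhibitor Ddit4 had 8.2 and 8.0 in siLin28a arrays, 8.2 and 7.7 in siGFP arrays and 7.1 and 7.0 in untreated arrays. Unlike Ddit4l, it overlapped between the siRNA groups, and it differed by 1.05 between siLin28a and untreated cells (SE 0.19, adjusted p = 0.535 by limma). Sgk3, a kinase related to Akt, and Ulk1, which starts autophagy and is inhibited by mTORC1, each differed by −0.30 between siLin28a and siGFP (SE 0.14 and 0.20). Between siLin28a and untreated cells they differed by −0.05 and −0.20.

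**Figure D4:**
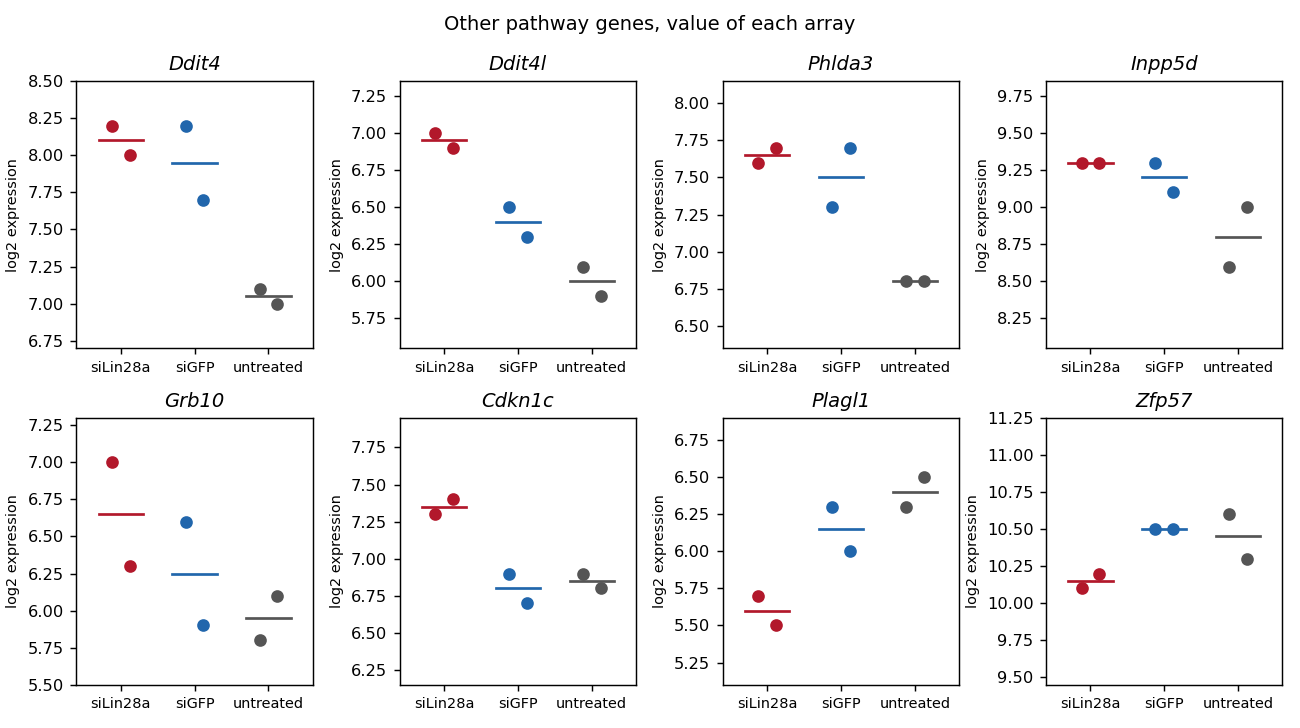
Log2 expression of 8 other genes of the pathway lists by group, with points for single arrays and lines for means of 2 arrays; every panel spans 1.8 log2 units. Ddit4, Phlda3 and Inpp5d were higher in both siRNA groups than in untreated cells, Ddit4l was highest with siLin28a, and Cdkn1c and Plagl1 separate siLin28a (higher and lower) from the other 4 arrays.

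Regulators of Igf2 mRNA and genes of imprinted growth control held 12 measured genes, with a median of −0.08 between siLin28a and siGFP and 3 at an unadjusted p under 0.05, beside 4.05% of all rows. Plagl1, an imprinted transcription factor that activates Igf2 and H19 in the mouse, had 5.7 and 5.5 in siLin28a arrays, 6.3 and 6.0 in siGFP arrays and 6.3 and 6.5 in untreated arrays. Cdkn1c, an imprinted inhibitor of the cell cycle, had 7.3 and 7.4 in siLin28a arrays, 6.9 and 6.7 in siGFP arrays and 6.9 and 6.8 in untreated arrays. Zfp57, which protects imprinted methylation, had 10.1 and 10.2 in siLin28a arrays, 10.5 and 10.5 in siGFP arrays and 10.6 and 10.3 in untreated arrays. For all 3 genes the siLin28a arrays lay outside the range of the other 4, above it for Cdkn1c, as in 3.64% of all rows, and below it for Plagl1 and Zfp57, as in 5.03%. Their siLin28a minus siGFP differences were −0.55 for Plagl1 (SE 0.16), 0.55 for Cdkn1c (SE 0.13) and −0.35 for Zfp57 (SE 0.14), with an adjusted p of 0.953 by limma for each. Of other imprinted genes of the list, Peg3 differed by −0.35 (SE 0.15) in the same comparison and by −0.15 between siLin28a and untreated cells. Dlk1, named after its values were seen, had 7.2 and 7.0 in siLin28a arrays, 6.8 and 6.8 in siGFP arrays and 6.8 and 6.9 in untreated arrays. It differed by 0.30 (SE 0.13) between siLin28a and siGFP, with both siLin28a arrays above the other 4, as in 3.64% of all rows. Imprinted genes of the list lay on both sides. Igf2 itself, as given above, differed by 0.15.

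Proteins of the IGF2BP family bind Igf2 mRNA, as LIN28A has been reported to do. Igf2bp1 had 10.5 and 10.8 in siLin28a arrays, 10.7 and 10.9 in siGFP arrays and 10.8 and 11.1 in untreated arrays, and Igf2bp3 had 7.7 and 8.0 in siLin28a arrays, 8.0 and 7.6 in siGFP arrays and 7.7 and 7.4 in untreated arrays. Both overlapped between siLin28a and siGFP, with an Igf2bp1 difference of −0.15 (SE 0.17, interval −0.57 to 0.27). Hmga2, a chromatin protein gene and a well known let-7 target, had 7.2 and 7.0 in siLin28a arrays, 7.3 and 7.2 in siGFP arrays and 7.0 and 6.8 in untreated arrays. Its difference was 0.35 between siGFP and untreated cells (SE 0.14), with siLin28a between them. Over the 11 measured pathway genes that published work links to let-7 or LIN28, which include Igf1r, Insr, Irs2, Rictor and Igf2, the median was −0.10 between siLin28a and siGFP, with 7 lower, 3 higher and 1 equal, and 0 had an unadjusted p under 0.05. Of the 23410 tested rows, 11605 were lower and 8969 higher in that comparison. Against untreated cells the siLin28a group differed by −0.30 for Igf2bp1 (SE 0.17) and 0.30 for Igf2bp3 (SE 0.20). Of the remaining members of that list, Akt2 had 8.7 and 9.1 in siLin28a arrays, 8.7 and 8.9 in siGFP arrays and 8.7 and 8.9 in untreated arrays. Tsc1, which restrains mTORC1, had 7.3 and 7.3 in siLin28a arrays, 7.4 and 7.4 in siGFP arrays and 7.1 and 7.5 in untreated arrays. Pik3ip1, an inhibitor of PI3K, had 6.2 and 6.1 in siLin28a arrays, 6.1 and 6.2 in siGFP arrays and 6.0 and 6.1 in untreated arrays.

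FoxO target genes, which are transcribed when Akt is less active, include Irs2 and Insr. Of 20 measured genes 15 were lower and 5 higher in siLin28a than in siGFP, with a median of −0.15 beside 0.00 over all rows. Of the 23410 tested rows, 11605 were lower and 8969 higher. Of the 20, 0 passed and 1 had an unadjusted p under 0.05, beside 4.05% of all rows. In 9 of the 20 both siLin28a arrays were below both siGFP arrays, beside 11.8% of all rows, and in 0 both were above, beside 9.03%. The median was −0.08 without siLin28a replicate 2 and −0.09 when quantile normalized again. Gadd45a, a growth arrest gene, had 7.5 and 8.0 in siLin28a arrays, 8.1 and 8.4 in siGFP arrays and 8.1 and 7.8 in untreated arrays, a difference of −0.50 between siLin28a and siGFP (SE 0.22). Pdk4, a mitochondrial kinase that slows the use of glucose, differed by −0.45 (SE 0.15) between siLin28a and siGFP and by −0.15 between siLin28a and untreated cells. Pdk4 was named after its values were seen. Klf2, also counted above as an ES cell marker, differed by −0.25 (SE 0.16) between siLin28a and siGFP and by −0.35 between siLin28a and untreated cells. The mitochondrial superoxide dismutase gene Sod2 had 9.9 and 9.9 in siLin28a arrays, 10.1 and 10.1 in siGFP arrays, a difference of −0.20 (SE 0.11), with both untreated arrays between them. The ES cell markers were lower in siLin28a arrays as well, and their part in this list's values was not tested. Between siGFP and untreated cells, which shares the siGFP arrays, 16 of the 20 were higher and 4 lower, with a median of 0.10. Over all tested rows 10403 were higher and 10092 lower. In 4 of the 20 both siGFP arrays were above both untreated arrays, as in 9.22% of rows. In 0 both were below, as in 8.46%. Between siLin28a and untreated cells 8 were higher, 10 lower and 2 equal, beside 9806 higher and 10931 lower over all tested rows. Both siLin28a arrays were above both untreated arrays in 2, as in 11.1% of rows, and below in 4, as in 12.6%. The median was −0.03, and it was 0.03 without siLin28a replicate 2 and 0.05 without untreated replicate 2. Ccng2, a cyclin gene that FoxO factors activate, had 6.6 and 6.6 in siLin28a arrays, 6.8 and 6.5 in siGFP arrays and 6.5 and 5.9 in untreated arrays.

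The genes whose values ran most like a member's over the 6 arrays could be named for 2 of the 8, since the other 6 spanned under 0.5 from the lowest to the highest array. Among 4296 rows of sufficient brightness and span, Zfp516 and Sec16a ran closest to Igf2r, each at a Pearson r of 0.99, and Thap3 and Mpv17 closest to Akt1, each at an r of 0.99. With 6 arrays and so many rows, coefficients of this size describe the arrays and are not a test.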

How the data were processed

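Total RNA of A3-1 cells was hybridised to 6 Affymetrix arrays, 2 per group. To obtain the deposited log2 values the authors used RMA in Affymetrix Expression Console, per the submitters' processing notes; RMA corrects background, quantile normalizes arrays and summarises probes, which damps small differences shared by many rows. Software versions, library files and a genome build: not given in the sources used here. Of 35556 rows, 23410 carry a gene in the platform annotation and were tested, 21797 of them with 1 symbol. Symbols of the 8 genes matched RefSeq by Entrez number.

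A linear model (limma 3.58.1, R 4.3.3, with lmFit and a two-sided eBayes test without a trend) was fitted on all 6 arrays in 3 groups, with 3 residual and 3.19 prior degrees of freedom and Benjamini-Hochberg adjustment over 23410 rows. The code was tested on simulated data. An exact permutation test of 2 against 2 arrays cannot go below 0.333, so none is given. Precision is limited by the number of arrays. The 8 genes, the lists and the named-gene rule were chosen with earlier results of these data known. Besides the 8 genes, the rule names Lin28a, a few fixed genes (of which some were not analysed here) and, per list and comparison, the 2 or 3 largest differences among genes whose arrays do not overlap and whose higher mean is at least 6. Genes outside it are marked in the text. Alternatives changed the scaling, dim-row filter, prior, samples, replicate block and row of a gene.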

Additional observations from a re-analysis of the deposited data

How the results depend on the processing

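None of the 8 genes was called in any comparison under other scalings, other priors or fits on the compared groups alone. The same held with the replicate block and with the rows of a gene averaged. Dim-row filters left out rows with a mean under 6 or under 5, and none of the genes still tested was called. Igf2 (mean 4.9) was tested under neither filter, and Irs1 (5.5) and Irs2 (5.52) only under the lower one. Rounding to 0.1 leaves 111 rows with no spread within any group, which least squares could not test. With 2 arrays per group, differences inside the printed intervals cannot be resolved. Over all rows 0 were called in each comparison. Between siLin28a and siGFP this became 1 with a robust prior and 1 with arrays set to the same median, Lin28a in both cases; between siLin28a and untreated cells it became 7 with a robust prior, 3 with the same median and 3 with cyclic loess. The cause was not tested. The median over the 8 genes between siGFP and untreated cells ran from 0.00 to 0.25 when 1 array was left out, the lowest without untreated replicate 1.

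Groups share replicate numbers, but nothing in the labels says what a number marks. For each 2 groups, a correlation coefficient was computed across 23410 rows between the deviations of their replicate 1 arrays from the group means. The coefficient was 0.36 between siLin28a and siGFP, 0.15 between siGFP and untreated and −0.04 between siLin28a and untreated. With 2 arrays per group, the deviations of replicate 2 mirror those of replicate 1. With the replicate block 0 rows and 0 of the 8 genes were called in each comparison, with 1350, 1255 and 1933 rows at an unadjusted p under 0.05, against 949, 825 and 1508 without it, in the same order of comparisons.

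Some small differences turned their sign. For siLin28a minus siGFP, cyclic loess gave 0.0438 for Igf2r and 0.043 for Mtor, and a repeated quantile normalization 0.025 for Igf2r and 0.0333 for Mtor. Setting siLin28a against the mean of siGFP and untreated gave 0.05 for Insr, 0.025 for Igf2r, 0.15 for Stc2, −0.05 for Grb7, 0.025 for Hmga2, 0.175 for Ccng2 and 0.15 for Grb14, and the mean of both Insr rows gave 0.10. For siLin28a minus untreated, Sgk3 had 0.0100 with cyclic loess and 0.00833 with repeated quantile normalization. When each array was left out in turn, siLin28a minus siGFP ran from −0.15 to 0.05 for Insr, −0.30 to 0.20 for Igf2r, −0.20 to 0.10 for Mtor, −0.45 to 0.25 for Stc2, −0.05 to 0.35 for Phlda3, −0.20 to 0.10 for Ccng2, −0.15 to 0.25 for Igf2bp3, −0.10 to 0.40 for Ddit4, −0.10 to 0.30 for Akt2 and −0.05 to 0.35 for Grb7. SiGFP minus untreated ran from −0.20 to 0.10 for Igf1r, −0.10 to 0.40 for Igf2r, −0.05 to 0.45 for Akt1, −0.10 to 0.20 for Mtor, −0.05 to 0.65 for Grb10, −0.15 to 0.35 for Ulk1, −0.25 to 0.05 for Klf2, −0.10 to 0.20 for Igfbp3, −0.20 to 0.10 for Sos1, −0.15 to 0.05 for Cdkn1c, −0.10 to 0.30 for Tsc1, −0.55 to 0.05 for Pik3c2a, −0.05 to 0.25 for Foxo1, −0.05 to 0.35 for Pik3r1 and −0.10 to 0.20 for Zfp57. SiLin28a minus untreated ran from −0.05 to 0.45 for Akt1, −0.10 to 0.30 for Akt2, −0.15 to 0.05 for Sgk3, −0.45 to 0.05 for Gadd45a and −0.45 to 0.05 for Ulk1. The cause of these turns was not tested.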
